A study of Mus musculus with 502 samples.

Results

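Bcl2, Bcl2l1, Mcl1, Bcl2a1b, Bcl2a1d, Bax, Bak1, Bcl2l11 and Bid are genes of the Bcl2 family, which sets the threshold for mitochondrial cell death. They were chosen by symbol, 9 of 46603 gene rows of a single-cell count table, and all 9 had reads. The table held 502 Cd45+ cells from kidneys of wild type CD1 mice about 3 weeks old, sorted as single cells negative for propidium iodide and sequenced with a protocol adapted from SmartSeq2. Cells came from kidneys dissociated fresh (75 cells in library pool IM793 and 81 in pool IM834) or kept whole at 4 °C in the preservation solution HTS-FRS for 6 h (76 cells, IM793), 1 day (75, IM834), 2 days (78, IM793), 3 days (82, IM834) or 4 days (35 cells in 3 pools). Kidneys of a single mouse were pooled at each timepoint, and libraries were made only from cells that had given enough cDNA. The labels name no animal, so each timepoint is 1 sample.

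Proteins of the Bcl2 family act at the outer membrane of mitochondria. The survival proteins Bcl2, Bcl-xL (from Bcl2l1), Mcl1 and A1 (from the Bcl2a1 genes) hold the pore-forming effectors Bax and Bak (from Bak1) in check, and the BH3-only proteins, among them Bim (from Bcl2l11) and Bid, oppose the survival proteins or activate the effectors. Leukocytes differ in the survival protein they depend on: neutrophils rely on the short-lived Mcl1, resting T cells on Bcl2, and A1 is induced in activated and inflammatory cells.

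Cells were gated on at least 10 reads of Cd3e, Cd79a, C1qb, Csf1r (in cells under that number of C1qb reads) or S100a8. The gates took 20.7%, 14.9%, 24.9%, 14.9% and 7.17% of the cells, 415 cells in all, while 75 cells fell in no gate and 12 in several. Markers that made no gate were checked. T cell markers were read in 51% to 88.5% of Cd3e cells, B cell markers in 61.3% to 100% of Cd79a cells, resident macrophage markers in 68.8% to 98.4% of C1qb cells and neutrophil markers in 55.6% to 91.7% of S100a8 cells. The Csf1r gate was mixed, with Ccr2 in 69.3%, Csf3r in 52% and Flt3 in 8% of its cells. Some markers crossed gates: Ighm was read in 81.6% of C1qb and 43.3% of Cd3e cells, Cd2 in 42.7% of Cd79a cells, and Cd3d in 33.3% of S100a8 cells, in which Cd3g was read in 2.78%. A kidney epithelial marker, Umod, was read in 13.3% of Cd79a cells and at most 5.33% of the cells of other gates. The part of such reads in the values given for the members was not tested.

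Differences between gates were tested on reads summed over the cells of a gate at a timepoint, where at least 5 cells were present. This gave 24 sums, 6 for C1qb, 3 for S100a8 and 5 for each other gate. Levels are counts per 1000000 reads on genes (CPM) of a sum, and in a sum fewer cells that use a gene and less RNA per cell cannot be told apart. The edgeR quasi-likelihood test with the timepoint as a block, adjusted by Benjamini-Hochberg over 12182 genes, called 2 of 90 pairs of a member and a contrast of gates, against 1.92% of all such pairs over all genes. At an unadjusted p under 0.05 there were 16 of the 90, against 14.6% over all genes. In simulated data with known changes this test recovered few of the changed genes, so a contrast that it did not call is not shown to be without a difference. DESeq2 called 20 of the 90 in the same design, against 22.4% over all genes. An alternative chosen after seeing the data, limma on the mean of log2(rpm + 1) over the cells of a sum, gives 1 cell less weight. It called 24 of the 90, against 11.2% over all genes (5.15% to 15.5% by contrast), and 8 of the 24 were called whichever timepoint was left out. All 24 had the same sign in edgeR, where 1 of them was called, and 11 were called by DESeq2 as well. These p-values measure the spread between timepoint sums, since nothing says that the cells of a timepoint came from separate animals. Fresh sums of different gates also came from different pools. The 16 fresh S100a8 cells were all of IM793, the 17 fresh Cd79a cells all of IM834, and 43 of 52 fresh Cd3e cells of IM834.

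Mcl1, the short-lived survival gene, was the member read in most cells of every gate. It was read in 33 of 36 S100a8 cells (91.7%, 77.5 to 98.2) and 65 of 75 Csf1r cells (86.7%, 76.8 to 93.4), where the brackets give the share and its exact 95% interval. The shares were 47 of 75 (62.7%, 50.7 to 73.6) in Cd79a cells, 58.4% in C1qb cells (73 cells, 49.2 to 67.1) and 53.8% in Cd3e cells (56 cells, 43.8 to 63.7), each within the intervals of the other two. Intervals and limits cover counting error only.

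**Figure D1:**
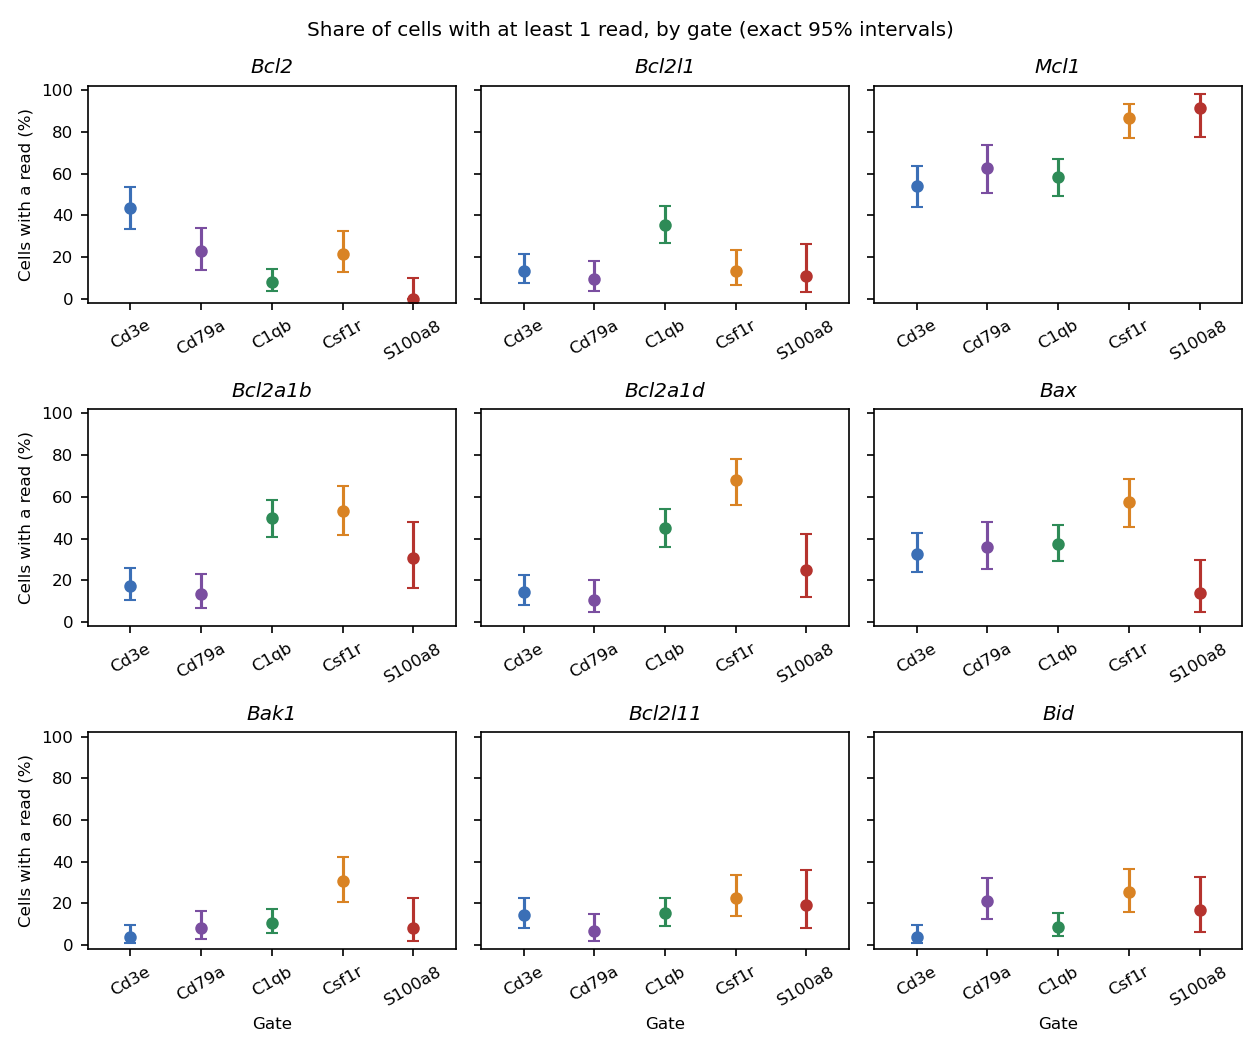
Share of cells with at least 1 read (y axis, percent) of each of the 9 genes in the 5 gates (x axis), over all timepoints; bars are exact 95% binomial intervals. Mcl1 was read in most cells of each gate, Bcl2 went from 43.3% of Cd3e cells to 0 of 36 S100a8 cells, and Bcl2a1b and Bcl2a1d were highest in the C1qb and Csf1r gates.

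In level, Mcl1 set the S100a8 gate apart. The 3 S100a8 sums stood at 1327, 1647 and 4173 CPM in fresh, 6 h and day 1 cells, and 63.6% of the day 1 reads came from 1 of 5 cells. Cd3e sums stood at 473, 159.8, 627, 145.96 and 248.4 CPM, in order of storage from fresh to day 3, and Cd79a sums at 554, 183.9, 1248, 308 and 686 CPM. C1qb sums ranged from 281 to 581 CPM and Csf1r sums from 75.1 to 1385 CPM. The S100a8 sums lay above every Cd3e, Cd79a and C1qb sum and overlapped with 1 Csf1r sum.

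By edgeR, Mcl1 was higher in S100a8 than in Cd3e cells by 3.28 on the log2 scale (SE 0.633, adjusted p = 0.00331) and than in Cd79a cells by 2.40 (SE 0.638, adjusted p = 0.0485), in contrasts where 2.61% and 2.21% of all genes were called. The differences of 2.51 from C1qb cells (adjusted p = 0.067) and 2.34 from Csf1r cells (adjusted p = 0.157) did not pass. The median over all genes went the other way, from 1.14 to 2.44 lower in S100a8 cells. The call against Cd3e was lost without 6 h (2.83, adjusted p = 0.0999) and without day 1 (3.36, adjusted p = 0.0579). The call against Cd79a held without day 2 (adjusted p = 0.0356) and was lost without each of the other 5 timepoints, the weakest fit being that without 6 h (1.70, adjusted p = 0.534). In limma the differences were 4.58 (SE 0.882, adjusted p = 0.000247) for Cd3e, 3.45 (SE 0.93, adjusted p = 0.00995) for C1qb and, outside its threshold, 2.71 (adjusted p = 0.0564) for Cd79a and 1.80 (adjusted p = 0.225) for Csf1r. The limma call against Cd3e held in 5 of 6 fits without a timepoint and that against C1qb in 4 of 6, and both were lost without 6 h (adjusted p = 0.0505 and 0.143). DESeq2 called Mcl1 higher in S100a8 cells than in each other gate, where it called 21.3% to 31.6% of all genes. Its adjusted p was 5.85e-07 for Cd3e, 0.000664 for Cd79a, 0.000433 for C1qb and 0.000548 for Csf1r. With timepoint and pool as the sample, edgeR called the difference from C1qb cells (2.58, adjusted p = 0.0421) and not that from Cd79a cells (2.48, adjusted p = 0.0577).

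S100a8 cells had the fewest genes. At 100000 reads per cell their median was 885 genes, against 1387 to 1908 in the other gates, and the part of this in their Mcl1 level was not tested. Of all reads on the 9 members, Mcl1 took 79.98% in the S100a8 gate and 34.7% in the Cd3e gate, where Bcl2 took more, 37.5%.

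Bcl2, the founding survival gene of the family, was read most in the Cd3e gate and not at all in the S100a8 gate. It was read in 43.3% of Cd3e cells (45 cells, 33.6 to 53.3), 17 of 75 Cd79a cells (22.7%, 13.8 to 33.8), 16 of 75 Csf1r cells (21.3%, 12.7 to 32.3) and 8% of C1qb cells (10 cells, 3.9 to 14.2). It was read in 0 of 36 S100a8 cells, with an exact interval of 0% to 9.74% and a limit of 8.33% by a floor of 3 cells. The Cd3e interval lay above those of the Csf1r, C1qb and S100a8 gates and overlapped with that of the Cd79a gate.

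Cd3e sums of Bcl2 stood at 416, 314, 735, 158.8 and 338 CPM from fresh to day 3. Cd79a sums ranged from 0 to 282 CPM, Csf1r sums from 0 to 127.1 CPM and C1qb sums from 0 to 224.8 CPM, the highest of which, at day 4, came to 99.1% from 1 cell. At each of the 5 timepoints from fresh to day 3 the Cd3e sum was the highest of the gates. In limma Bcl2 was higher in Cd3e cells than in C1qb cells by 2.95 (SE 0.526, adjusted p = 9.3e-05), than in Csf1r cells by 2.06 (SE 0.501, adjusted p = 0.00328) and than in S100a8 cells by 3.87 (SE 0.621, adjusted p = 1.74e-05), each whichever timepoint was left out. The difference from Cd79a cells, 1.83 (SE 0.528, adjusted p = 0.0337), held in 2 of 6 such fits. In edgeR 0 of the 10 Bcl2 contrasts were called, and Cd3e against S100a8 came nearest (adjusted p = 0.0586).

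**Figure D2:**
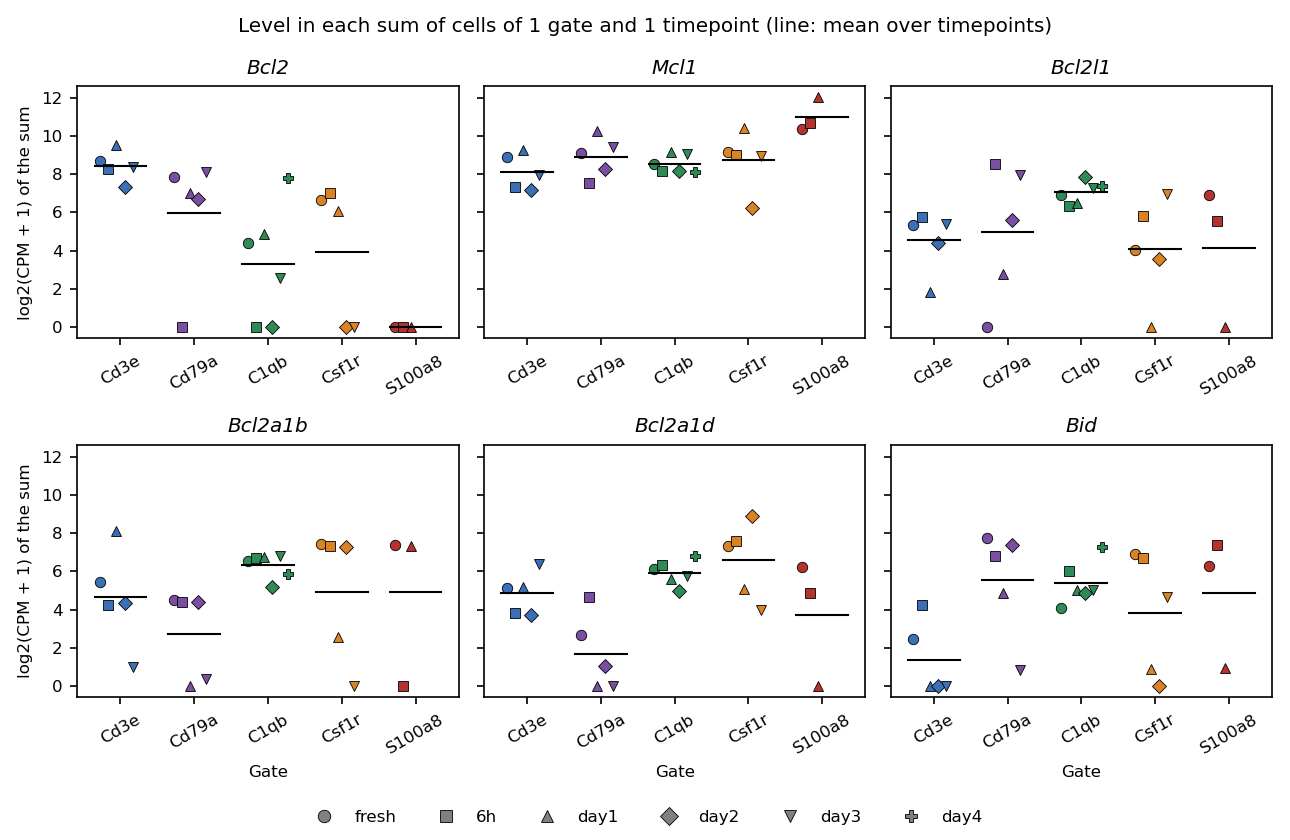
Level of 6 members as log2(CPM + 1) (y axis) in the 24 sums of cells of a gate (x axis) and timepoint (marker); lines are means over timepoints. The Mcl1 sums of S100a8 cells lay above all Cd3e, Cd79a and C1qb sums, and Bcl2 was at 0 in all 3 S100a8 sums.

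Bcl2l1, the Bcl-xL gene, was read most widely in the macrophage gate, in 35.2% of C1qb cells (44 cells, 26.9 to 44.2) against 9.33% to 13.5% in the other gates. C1qb sums stood at 120.7, 81.2, 89.4, 234.9, 157.1 and 165.3 CPM from fresh to day 4. Cd79a sums ranged from 0 to 372 CPM, and single cells carried most of the reads of such sums. The C1qb sums lay above every Cd3e sum and within or across the range of the other 3 gates. In limma C1qb exceeded Cd3e by 1.61 (SE 0.518, adjusted p = 0.0323), which held in 2 of 6 fits without a timepoint, while edgeR gave 3.78 (SE 1.87, adjusted p = 0.312).

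The A1 genes Bcl2a1b (chr9:89199209-89207827, plus strand) and Bcl2a1d (chr9:88723285-88731914, minus strand; GRCm38, GENCODE) are near-identical copies. Their transcripts share 810 of 817 aligned bases (99.1%), and 31.6% and 32.4% of their 75-base windows occur in no other annotated gene, against 84.3% to 100% for the other 7 members. The split of reads between the copies is therefore uncertain. Their promoter windows, from 250 bases before to 50 after the RefSeq start, are shown because both genes were read in the same gates and the windows are nearly identical. Capitals mark AGGAAG, a core that ETS factors such as PU.1, a regulator of myeloid and B cells, can bind.

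Bcl2a1b, GRCm38.p6, chr9:89199023-89199322, plus strand: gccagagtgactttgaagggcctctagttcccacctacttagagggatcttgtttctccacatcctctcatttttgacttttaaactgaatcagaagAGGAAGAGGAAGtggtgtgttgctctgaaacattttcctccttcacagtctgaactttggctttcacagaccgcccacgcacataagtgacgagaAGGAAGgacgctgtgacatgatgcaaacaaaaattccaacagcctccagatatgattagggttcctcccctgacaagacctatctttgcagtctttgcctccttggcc
Bcl2a1d, GRCm38.p6, chr9:88731801-88732100, minus strand: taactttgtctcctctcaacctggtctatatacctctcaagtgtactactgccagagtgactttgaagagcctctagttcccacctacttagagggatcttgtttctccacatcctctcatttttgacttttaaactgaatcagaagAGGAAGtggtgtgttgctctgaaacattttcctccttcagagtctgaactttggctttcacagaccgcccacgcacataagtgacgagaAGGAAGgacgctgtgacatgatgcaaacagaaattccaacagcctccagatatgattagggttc

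The aligned parts of the windows are 98.8% identical. AGGAAG, searched on both strands, was found 3 times in the Bcl2a1b window and 2 times in the Bcl2a1d window. At least 1 match was found in 35.4%, and 2 or more in 8.62%, of 32851 RefSeq promoter windows of this length. Of the other members, Bid had 2 matches, Bcl2 and Bak1 had 1 each, and Mcl1, Bcl2l1, Bax and Bcl2l11 had 0. A match describes the letters only.

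Both A1 genes were read mostly in the C1qb and Csf1r gates. Bcl2a1b was read in 40 of 75 Csf1r cells (53.3%, 41.4 to 64.95), 49.6% of C1qb cells (62 cells, 40.5 to 58.7), 11 of 36 S100a8 cells (30.6%, 16.3 to 48.1), 17.3% of Cd3e cells (18 cells, 10.6 to 25.97) and 10 of 75 Cd79a cells (13.3%, 6.58 to 23.2). Bcl2a1d was read in 51 of 75 Csf1r cells (68%, 56.2 to 78.3) and 44.8% of C1qb cells (56 cells, 35.9 to 53.95), and in 10.7% to 25% of the others. At 100000 reads per cell its C1qb share was 32.3%, below that interval.

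C1qb sums of Bcl2a1b ranged from 35.1 to 112.7 CPM and those of Bcl2a1d from 30.6 to 111.01 CPM. Csf1r sums from fresh to day 3 stood at 173.4, 162.04, 4.98, 151.5 and 0 CPM for Bcl2a1b and at 161.9, 190.8, 33.01, 469 and 14.5 CPM for Bcl2a1d. Both were lowest at days 1 and 3, when all cells were of pool IM834. In limma Bcl2a1d was higher in Csf1r than in Cd3e cells by 3.39 (SE 0.554, adjusted p = 2.23e-05) and than in Cd79a cells by 3.62 (SE 0.597, adjusted p = 3.96e-05). Bcl2a1b was higher in C1qb than in Cd3e cells by 3.10 (SE 0.716, adjusted p = 0.00215) and than in Cd79a cells by 2.96 (SE 0.763, adjusted p = 0.00849). These 4 held whichever timepoint was left out, while edgeR called 0 of the 20 contrasts of both genes, with a lowest adjusted p of 0.201.

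Counted reads of the copies did not keep 1 ratio across gates, nor across timepoints within the Csf1r gate, and their split is uncertain. Levels per kilobase used the whole exon length. Of the 75-base windows, 31.6% of Bcl2a1b, 32.4% of Bcl2a1d and 44.8% of Bcl2a1a were unique. Per kilobase of exon, Bcl2a1b, Bcl2a1d and the third copy Bcl2a1a stood at 178.97, 193.9 and 132.9 CPM in Csf1r cells, and at 108.7, 67.5 and 42.7 CPM in C1qb cells. In Cd3e cells they stood at 51.8, 29.97 and 0.264 CPM. Bcl2a1a, which had 2 reads in all Cd79a cells, was the only other family gene called by edgeR: higher in Csf1r than in Cd3e cells (log2 8.68, adjusted p = 0.0408), in C1qb than in Cd79a cells (9.65, adjusted p = 0.0261) and in Csf1r than in Cd79a cells (10.995, adjusted p = 0.0168). Of the Csf1r cells, 39 had reads of both Bcl2a1b and Bcl2a1d, 1 of Bcl2a1b alone and 12 of Bcl2a1d alone. In C1qb cells the numbers were 36, 26 and 20, and the part of shared reads in them was not tested.

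Bax, a pore-forming effector, was read in 43 of 75 Csf1r cells (57.3%, 45.4 to 68.7) and 5 of 36 S100a8 cells (13.9%, 4.67 to 29.5), with 32.7% to 37.6% in the other 3 gates. S100a8 sums stood at 35.8, 15.9 and 16.9 CPM, and Csf1r sums from fresh to day 3 at 149.7, 104.6, 84.1, 240.3 and 55.1 CPM, with no overlap between them. The difference was 3.20 (SE 0.721, adjusted p = 0.0026) in limma, held in 4 of 6 fits without a timepoint (adjusted p = 0.135 without fresh cells), and 1.75 (SE 1.62, adjusted p = 0.702) in edgeR.

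Bak1, the other effector, was the least abundant member per kilobase in 4 of 5 gates, with all timepoints summed. It was read in 23 of 75 Csf1r cells (30.7%, 20.5 to 42.4) and 3.85% to 10.4% of other cells. Its sums lay between 0 and 7.85 CPM, apart from the Csf1r sum of day 3 at 41.1 CPM with 76.5% of reads from 1 cell. In limma Csf1r exceeded Cd3e by 1.09 (SE 0.301, adjusted p = 0.0103), lost without fresh cells (adjusted p = 0.0927). Bak1 shares stretches with the overlapping Ggnbp1. Strand was not used, so reads from these stretches may be missing from the Bak1 counts.

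Bid, the BH3-only protein that caspase-8 cleaves, was read least in Cd3e cells, in 3.85% (4 cells, 1.06 to 9.56), against 16 of 75 Cd79a cells (21.3%, 12.7 to 32.3) and 19 of 75 Csf1r cells (25.3%, 15.99 to 36.7). The C1qb share, 8.8% (4.48 to 15.2), and the S100a8 share, 6 of 36 (16.7%, 6.37 to 32.8), had intervals that overlap with that of Cd3e cells. Cd3e sums from fresh to day 3 stood at 4.45, 17.999, 0, 0 and 0 CPM and Cd79a sums at 215.5, 110.3, 28.5, 168.02 and 0.792 CPM. Each Cd79a sum was above the Cd3e sum of its timepoint, at day 3 only by 0.792 CPM against 0. In limma Bid was lower in Cd3e than in Csf1r cells by 1.85 (SE 0.405, adjusted p = 0.00107), whichever timepoint was left out, and than in Cd79a cells by 1.98 (SE 0.426, adjusted p = 0.0022), lost without fresh cells (adjusted p = 0.0965). The differences from C1qb cells, 0.98 (SE 0.425, adjusted p = 0.133), and S100a8 cells, 0.75 (SE 0.502, adjusted p = 0.358), did not pass in limma. In edgeR none of the 4 passed, with a lowest adjusted p of 0.16. DESeq2 called Bid lower in Cd3e cells in all 4, in contrasts where it called 15.8% to 30.1% of all genes. Its adjusted p was 2.31e-05 for Cd79a, 0.000123 for C1qb, 0.00781 for Csf1r and 0.0132 for S100a8.

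Bcl2l11, the Bim gene, was called in 0 of 10 contrasts by edgeR, DESeq2 and limma. It was read in 6.67% of Cd79a to 22.7% of Csf1r cells, with overlapping intervals. Its C1qb sums ran from 0.173 to 158.2 CPM and its Cd79a sums from 0 to 175.8 CPM.

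Per kilobase of exon, with the cells of all timepoints summed, the order of the members differed between gates. Mcl1 was first in Cd3e (90.7 CPM per kilobase), Cd79a (143.8), C1qb (126.01) and S100a8 cells (466), while Bcl2a1d (193.9), Bcl2a1b (178.97) and Mcl1 (169.5) led in Csf1r cells. Bax was second in Cd3e (63.2) and Cd79a cells (41.8). The orders in the Cd3e, Cd79a, C1qb and Csf1r gates changed with the timepoint. In Cd3e cells Bax took 0% of member reads on day 1 and 24.6% at day 2, where Mcl1 took 37.3% and 29.4%. In Csf1r cells Mcl1 took 79.6% on day 1, 7.92% at day 2 and 55.2% on day 3, and Bcl2a1d 1.90%, 49.5% and 1.64%. The whole exon length was also used for the A1 copies, whose split of reads is uncertain. At 100000 reads the median number of members read per cell was 3 in the Csf1r gate, 1 in the Cd79a gate and 2 in the others. On all reads the median was 4 in the Csf1r gate, 3 in the C1qb gate and 2 in the others. At 100000 reads, none of the 4 death genes was read in 25.7% of Csf1r cells and in 47.6% to 61.2% of the cells of other gates.

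Over the 24 sums, the genes most like Bcl2 by Pearson correlation of log2(CPM + 1), among 6034 genes, were Gnl2 (0.85), Cdk17 (0.84) and Hibadh (0.82). Those most like Mcl1 were Gltscr1 (0.75), Slpi (0.69) and Rnf19b (0.69), and those most like Bcl2a1b were U2af2 (0.72), Med28 (0.70) and Elovl1 (0.69). Slpi, a protease inhibitor of neutrophils, stood at 485 CPM in S100a8 and 60.1 CPM in Csf1r cells. The sums share timepoints, and these values only describe them. Of 17 further Bcl2 family genes 10 were tested, with Bcl2a1a called in 3 contrasts by edgeR. Of 14 apoptosome and caspase genes, all tested, and 7 tested of 8 genes of p53 and its targets, 0 were called, where 1.92% of all pairs of a gene and a contrast were.

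Storage in the cold was compared within a gate and pool, preserved over fresh, in 14 comparisons with at least 5 cells on each side. Each is a pair of single samples and was not tested, and comparisons of a gate and pool share their fresh cells. Of 110 pairs of a member and a comparison with at least 50 reads, 55 were past 2-fold in CPM, 17 higher and 38 lower. Over all genes 72.9% were past 2-fold, 30.7% higher and 42.2% lower. Fresh cells of IM834 over fresh cells of IM793 gave 66.8% in the Cd3e gate and 73.8% in the C1qb gate, and the 55 of 110 lie below each of these shares. Median totals per cell in IM793 were 712369 reads fresh and 962322 at 6 h, and in IM834 548583 fresh and 417385 to 520104 in preserved cells.

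Bcl2l11 had the most one-sided values, lower by over 2-fold in 9 of 12 comparisons and higher in 0. In IM793 it was read in 5 of 9 fresh Cd3e cells, 1 of 19 at 6 h and 1 of 16 at day 2 (220.7, 18.7 and 18.6 CPM). In Csf1r cells the numbers were 8 of 29, 3 of 16 and 0 of 5, and in S100a8 cells 5 of 16 fresh and 1 of 13 at 6 h. As counted, these gates had a lower share after storage, over few cells and without a test. The 5 fresh Cd3e cells with a read had 2136, 2997, 4162, 4390 and 4572 genes, where the median of the 9 fresh cells was 2198. At 100000 reads per cell the median gene number of these Cd3e cells was 1853 fresh, 1638 at 6 h and 1256.5 at day 2, that of Csf1r cells 2050, 2114.5 and 1371, and that of S100a8 cells 874 and 841.5. The part of gene number in the shares was not tested. In C1qb cells of IM793, with too few reads for a fold, a read was found in 0 of 7 cells fresh, 1 of 6 at 6 h and 3 of 15 at day 2.

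In IM834, Bcl2l11 was read in 4 of 8 fresh C1qb cells, 1 of 22 on day 1, 9 of 54 on day 3 and 1 of 10 on day 4. The levels were 227.6, 0.44, 147.4 and 249.3 CPM, the last from 1 cell. In Cd3e cells of this pool the levels were 10.3 CPM fresh, 0.682 on day 1 and 0 on day 3. Cd79a cells went the other way at first, with 90.7 CPM fresh (3 of 17 cells), 175.8 on day 1 (2 of 14) and 0 on day 3 (0 of 5). Fresh cells of the pools also differed: 5 of 9 Cd3e cells in IM793 against 7 of 43 in IM834, and 0 of 7 C1qb cells against 4 of 8. Storage and the difference between mice cannot be told apart.

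**Figure D3:**
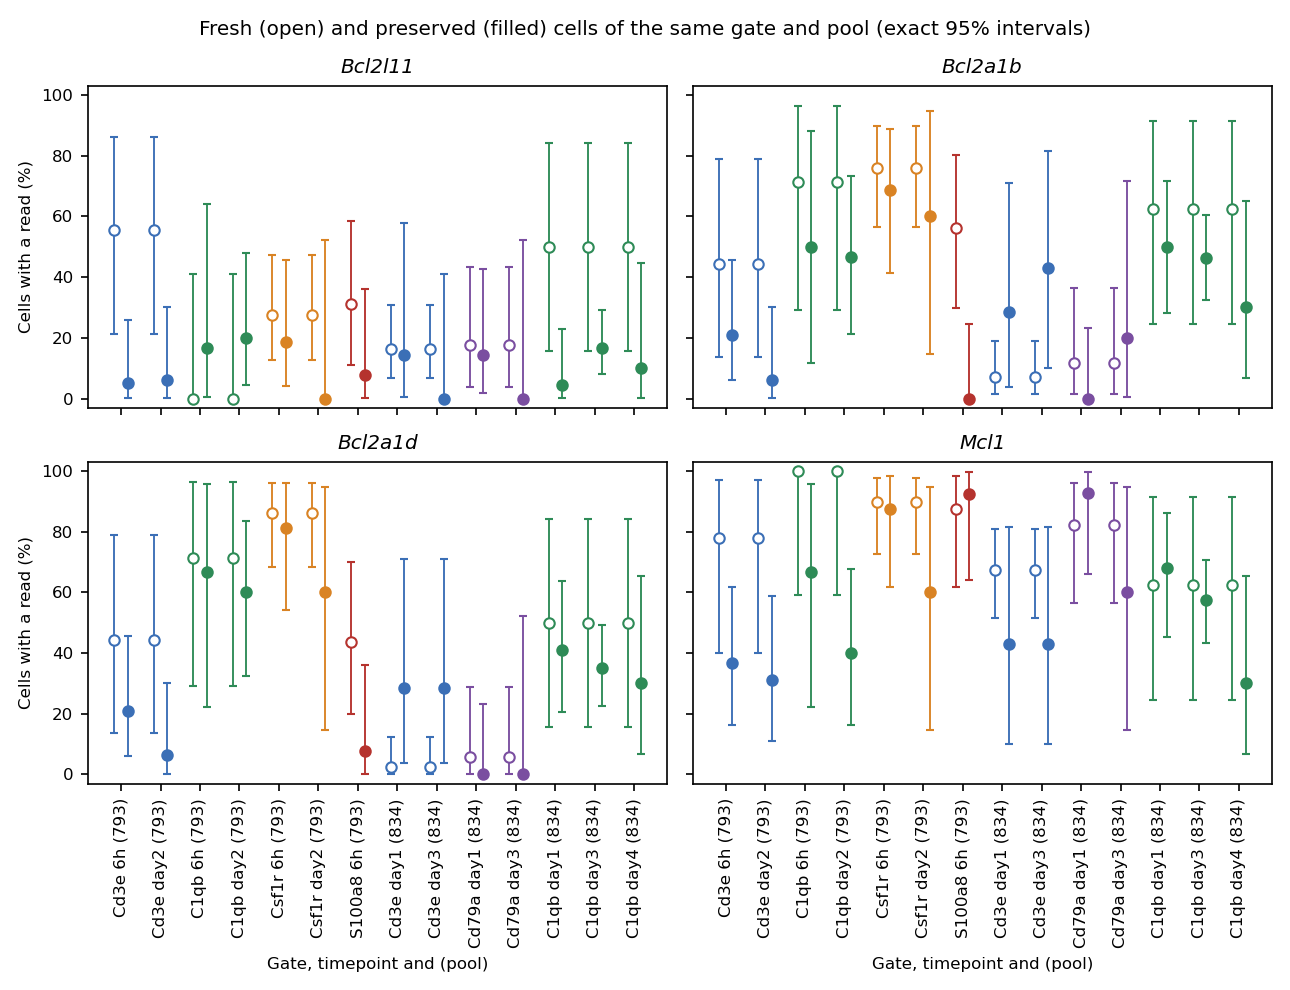
Share of cells with a read (y axis, percent) of Bcl2l11, Bcl2a1b, Bcl2a1d and Mcl1 in fresh (open) and preserved (filled) cells of a gate, timepoint and pool (x axis); bars are exact 95% binomial intervals, and fresh cells recur in each comparison of their gate and pool. Bcl2l11 in IM793 Cd3e cells went from 5 of 9 fresh to 1 of 19 at 6 h, and Bcl2a1b in S100a8 cells from 9 of 16 to 0 of 13.

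Bcl2a1b was read in 9 of 16 fresh S100a8 cells (exact interval 29.9% to 80.2%) and 0 of 13 at 6 h (0% to 24.7%). Its level was 163.7 CPM against 0. This is 556-fold over a floor of 3 reads in the 6 h cells, and 361-fold without the fresh cell with most reads (106.3 CPM). The floor counts reads and not cells, and 1 cell can hold most reads of a sum. These folds therefore set no lower limit on the difference between the samples. The 5 day 1 S100a8 cells, of IM834, in which no fresh cell was in this gate, stood at 162.04 CPM, all from 1 cell. Bcl2a1d was read in 7 of 16 fresh S100a8 cells and 1 of 13 at 6 h. In Cd3e cells Bcl2a1d went in opposite directions in the pools, from 152.1 CPM fresh to 13.1 at 6 h in IM793 and from 4.63 CPM fresh to 35.02 on day 1 in IM834.

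Mcl1 was past 2-fold in 3 of 14 comparisons. It stood at 531 CPM in fresh Csf1r cells of IM793 and 75.1 CPM at day 2, with 5 cells, and in IM834 at 529 CPM in fresh and 248.4 CPM in day 3 Cd3e cells. The third was higher after storage, with 554 CPM in fresh and 1248 CPM in day 1 Cd79a cells. Within 2-fold, it stood at 1327 CPM fresh and 1647 CPM at 6 h in S100a8 cells, and at 521 CPM at 6 h in Csf1r cells of IM793. Its share was less even: 7 of 7 fresh C1qb cells of IM793 had a read, 4 of 6 at 6 h and 6 of 15 at day 2.

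Bax was past 2-fold higher in 2 and lower in 2 of 14 comparisons. In Cd3e cells of IM834 it was read in 14 of 43 fresh, 0 of 7 day 1 and 2 of 7 day 3 cells, at 95.7, 0 and 178.5 CPM. In Cd79a cells of that pool it stood at 92.3 CPM fresh, 93.8 on day 1 and 85.5 on day 3. Bcl2 in fresh Cd3e cells stood at 86.7 CPM in IM793 and 499 CPM in IM834, further apart than any preserved and fresh pair of that gate within a pool. Bid was past 2-fold higher in 5 and lower in 4 of 12 comparisons, and in Cd79a cells was read in 7 of 17 fresh, 1 of 14 day 1 and 1 of 5 day 3 cells.

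Among C1qb cells, 33 had under 1200 genes at 100000 reads and 91 had more. Of the 33, 0 were fresh or from 6 h, 4 were from day 1, 1 from day 2, 19 from day 3 and 9 from day 4. With the line at 1000 or 1500 genes, 23 or 52 cells fell under it, and whether these cells form a group of their own was not tested. Ptprc, the gene of Cd45, was read in 48.5% of them against 96.7%, and mitochondrial reads had a median of 5.28% against 2.70%. The split itself lowers shares: over the 1393 genes read in at least 40% of cells with many genes, the median share was 57.1% there and 27.3% in cells with few genes, a median ratio of 0.471.

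Mcl1 was read in 8 of 33 cells with few genes (24.2%, 11.1 to 42.3) and 64 of 91 others (70.3%, 59.8 to 79.5), a ratio of 0.345. Bcl2l1 was read in 3 of 33 (9.09%, 1.92 to 24.3) and 41 of 91 (45.1%, 34.6 to 55.8), a ratio of 0.202, and Bcl2a1b in 14 of 33 (42.4%, 25.5 to 60.8) and 48 of 91 (52.7%), a ratio of 0.804. Within day 3, with 19 and 35 cells, the shares were 26.3% and 74.3% for Mcl1, 10.5% and 45.7% for Bcl2l1 and 47.4% and 45.7% for Bcl2a1b. The ratios there were 0.354, 0.230 and 1.04, against a median of 0.518 over 1297 genes read in at least 40% of day 3 cells with many genes.

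**Figure D4:**
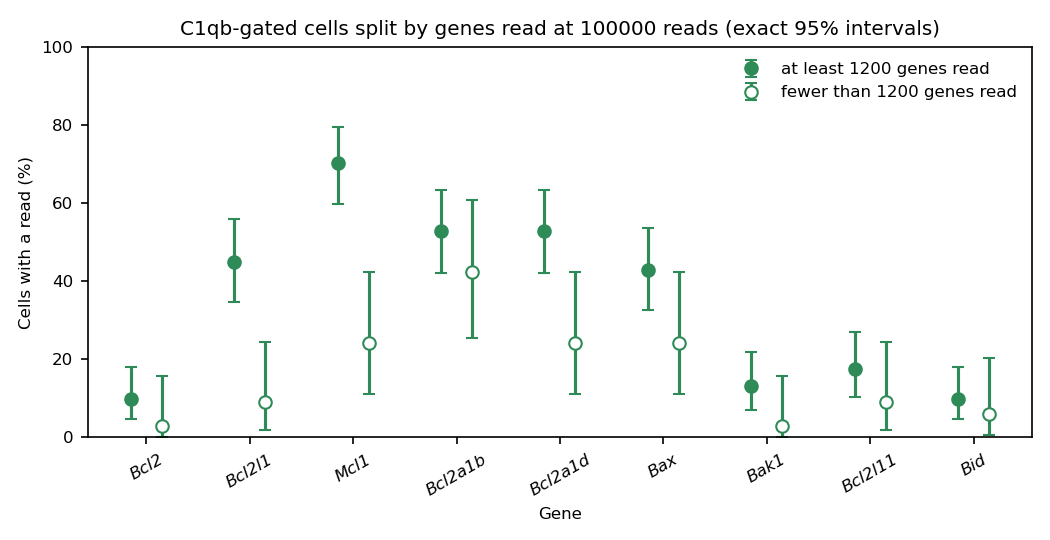
Share of C1qb cells with a read (y axis, percent) of each member (x axis) in the 91 cells with at least 1200 genes at 100000 reads (filled) and the 33 with fewer (open); bars are exact 95% binomial intervals. Mcl1 stood at 70.3% and 24.2%, Bcl2l1 at 45.1% and 9.09%, and Bcl2a1b at 52.7% and 42.4%.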

How the data were processed

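Paired-end reads of single-cell SmartSeq2 libraries were trimmed to 75 bases, cleared of duplicates, aligned with STAR to GRCm38 and counted per gene with HTSeq, without strand, by the authors. The deposited table holds these raw counts, without molecular identifiers. The annotation release and the handling of reads that map to several places were not stated.

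Here 97 spike-in and vector rows (0.140% of counts) were left out. A cell with several gate genes went to the one with at least 10 times the next. Sums of counts per gate and timepoint were tested with edgeR 4.0.16 (filterByExpr, TMM, adjusted p under 0.05), with DESeq2 1.42.0 and limma 3.58.1 (trend, cell numbers as weights) as alternatives. Storage ratios used a prior count of 1. For equal depth, cells were thinned to 100000 reads, leaving out 8 cells. Totals per cell ran from 1759 to 1895431 reads, with a median of 695188. Fits were tested on simulated data, in which edgeR recovered few of the changed genes. The limma alternative was added because single cells held most reads of a gene in many sums. Promoters and annotation were from RefSeq and GENCODE (GRCm38), in which all 9 members matched. The members, lists and tests were chosen with earlier results of these data known. Named genes were the 9 members, gate markers, genes of the pathway lists past the threshold and the 3 genes most like Bcl2, Mcl1 and Bcl2a1b.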

Additional observations from a re-analysis of the deposited data

How the results depend on the processing

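The number of member and contrast pairs called in edgeR was 2 of 90. It was 20 with DESeq2 and 24 with limma on mean log2(rpm + 1), and 1 without a filter on low counts, with a gate at 1 count, where the most counts decide the gate, and with at least 10 cells per sum. It was 2 without the 18S gene, the same pairs, and 2 with timepoint and pool as the sample, where Mcl1 in S100a8 against C1qb took the place of S100a8 against Cd79a. Without the replicate block, that is without the timepoint in the fit, it was 3: Mcl1 in S100a8 against Cd3e and C1qb, and Bcl2 in Cd3e against S100a8. Mcl1 in S100a8 against Cd79a was called in DESeq2 and without the 18S gene, and in none of the other 7 settings that keep every timepoint, limma included. Leaving out 1 timepoint gave 0 to 2. In limma, leaving out 1 timepoint gave 13 (without fresh) to 24 calls. The 4 settings with 1 call kept Mcl1 in S100a8 against Cd3e, and neither of the 2 pairs changed sign in any setting. The cause of the differences between tools was not tested. The timepoint block pairs the gates of a timepoint but not of a pool, since fresh S100a8 cells were of IM793 and fresh Cd79a cells of IM834. The storage ratios come from no test, so they have no paired fit. Of 110 member time comparisons, 55 were past 2-fold, and 52 with fresh cells of both pools, 77 without the cell with most reads, 56 on mean log2(rpm + 1), 52 with TMM, 56 with a gate at 1 count and 55 without the 18S gene. Of the 55 themselves, 45, 44, 32, 52, 55 and 55 in that order stayed past 2-fold in the same direction, and 2, 8, 8, 0, 0 and 0 had the other sign. Of 90 shares recomputed after thinning or with at least 5 reads, 2 left their interval, both of Bcl2a1d. The interval of 0 of 36 cells, to 9.74%, covers the number of cells and not reads missed within them.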
